A study of Danio rerio with 16 samples.

Results

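The comparison set whole caudal fin of adult zebrafish at 1 day post-amputation (dpa) against uninjured fin (0 dpa). Whole genome bisulfite sequencing (WGBS), which reads a methylated cytosine as C and an unmethylated one as T, was used to count methylated reads at CpG sites. All libraries came from the strain Tg(sp7:EGFP), in which the regulatory sequence of sp7, an osteoblast transcription factor, drives EGFP. The 0 dpa group was intact fin and the 1 dpa group was tissue of the regenerating fin, described by the study as a mixture of blastema and wound epidermis, with 2 libraries in each group. The comparison therefore sets a whole organ against its regrowing edge, and in bulk tissue a change in the cells present and a change of level within cells cannot be told apart. The number of fish pooled in a whole fin library is not given in the sources used here, so p-values and SDs measure the spread between 2 libraries only.

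The genome was cut into tiles of 500 bp, and 1668885 of the 2631724 tiles that list a CpG had 10 or more CpG calls (reads summed over CpGs) in each of the 4 libraries. These tiles hold 76.9% of the listed CpGs and 4 of the 16 libraries of the series enter the comparison. The 12 others, namely later whole fin (2 and 4 dpa) and sp7+ and sp7- cells sorted by EGFP from uninjured and 4 dpa fins, are used only to set starting levels and to follow tiles. The 4 libraries hold 122468737 to 147350053 calls in kept tiles, with a median of 51 to 61 calls per tile and library. Levels are methylated calls over all calls in percent, and differences are in percentage points (points).

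In vertebrates, DNA methyltransferases place a methyl group on most CpG cytosines, and the mark is copied to the new strand when DNA is replicated. CpG-rich promoters usually stay free of it, and many enhancers lie at intermediate levels that differ between cell types. TET enzymes oxidize the mark, and it is also diluted when copying fails during division.

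The level of the genome was higher at 1 dpa. It was 77.5% and 77.2% in the 0 dpa libraries and 79.1% and 79.2% in the 1 dpa libraries, a rise of 1.80 points from 77.4% ± 0.21 to 79.2% ± 0.14 (SD, n = 2). Both 1 dpa libraries lay above both 0 dpa libraries, by 1.55 to 2.05 points. A two-sided exact permutation test of 2 libraries against 2 gave p = 0.333, the smallest it can give, so the difference cannot pass a threshold in this design. Whole fin read 78.1% and 78.5% at 2 dpa, and by 4 dpa it read 76.2% and 76.8%.

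Tiles at intermediate starting levels rose most. To keep the starting level apart from the difference, tiles were binned by 1 library of 0 dpa and the difference was taken from the other, both ways. The rise was 4.15 points in tiles that started at 40 to 60% (3.74 to 4.58 over the pairs of libraries), 3.63 points at 60 to 75% and 3.53 points at 20 to 40%. It was 2.36 points at 75 to 85% and 1.00 at 85 to 95%. At both ends it was near 0, with -0.04 points at 0 to 5% and 0.12 points at 95 to 100%, where the library pairs ran from -0.08 to 0.31.

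Intermediate tiles also rose most when the sorted cells of 0 dpa, which take no part in the difference, set the starting level. Tiles at 40 to 60% in those cells stood at 53.8% and 53.2% in the 0 dpa libraries and at 57.9% and 57.9% in the 1 dpa libraries, a rise of 4.39 points. Tiles at 60 to 75% rose by 4.07 points and tiles at 95 to 100% differed by -0.07 points. The sign at both ends thus turned with the choice of bins, since tiles at 0 to 5% differed by 0.08 points here. Weighted by calls, tiles between 20 and 85% in the sorted cells carried 70.3% of the rise with 37.3% of the calls. Tiles above 85% carried 27.0% with 56.3% of the calls. By bin, the largest shares were 31.9% at 75 to 85% and 27.5% at 85 to 95%, beside 10.8% at 40 to 60%. At 4 dpa the tiles that started at 40 to 60% read 54.3% and 53.9%. Tiles at 20 to 40% went from 35.6% at 0 dpa to 38.9% at 1 dpa and read 39.0% and 37.9% at 4 dpa. Tiles at 60 to 75% went from 68.6% to 72.6% and read 67.3% and 67.4% at 4 dpa.

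**Figure D1:**
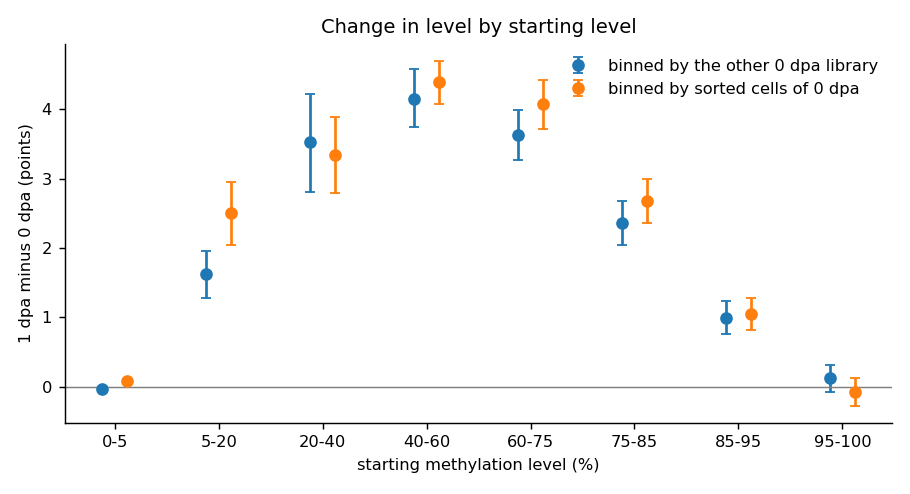
Change in methylation level (1 dpa minus 0 dpa, points) by starting level in percent. Points are means and bars span the lowest and highest difference between a 1 dpa and a 0 dpa library. The change was 4.15 points at 40 to 60% and near 0 at both ends.

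Unmethylated tiles differed little between the groups. In the 17576 tiles at 1% or less in the sorted cells, the 0 dpa libraries read 0.66% and 0.67% and the 1 dpa libraries 0.65% and 0.61%. Tiles at over 1 to 5% read 2.87% at 0 dpa and 3.06% at 1 dpa, higher by 0.16 to 0.22 points over library pairs. The study added unmethylated lambda DNA to calculate bisulfite conversion, but those rates were not used here. Conversion was not measured again, and its part in the rise was not tested.

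Tiles with few CpGs rose more than CpG-rich ones. Tiles of 1 to 3 CpGs rose from 71.0% to 74.1%, a difference of 3.04 points (2.42 to 3.67 over library pairs). The difference was 2.26 points at 7 to 10 CpGs, 1.45 at 16 to 25 and 0.71 in tiles of over 25 CpGs, where the library pairs ran from 0.04 to 1.39. CpG number and starting level are tied: 62.0% of tiles of 1 to 3 CpGs and 12.9% of those of over 25 lay between 20 and 85% in the sorted cells.

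Held within starting levels, the order was flatter. In tiles that started at 20 to 60%, the rise was 4.45 points with 1 to 3 CpGs, 3.95 with 7 to 10 and 3.97 with 16 to 25, and in the few tiles of over 25 CpGs it was 2.43 points. In tiles that started at 75 to 85%, it went from 3.23 points at 1 to 3 CpGs to 2.51 at 16 to 25 and 1.65 at over 25.

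Isolated CpGs rose more than clustered ones. A CpG whose nearest neighbor lay 2 to 10 bp away, the class of 43.2% of all listed CpGs, rose by 1.25 points, from 78.8% to 80.0%. The rise was 1.87 points at 11 to 25 bp, 2.61 at 26 to 50 bp and 3.17 at 51 to 100 bp. It was 3.07 points at over 100 to 200 bp and 3.38 points at over 200 bp, and from 26 bp on the ranges over library pairs of neighboring classes overlapped. Within tiles at 75% or more in the sorted cells the rise went from 0.86 points at 2 to 10 bp to 2.57 at 51 to 100 bp. The CpGs of these 2 classes stood at 89.4% and 79.8% at 0 dpa, so this split did not hold the starting level fixed. In tiles that started at 20 to 60% the rise stayed between 3.72 and 4.38 points over all spacings.

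The rise also differed with the cell type difference measured in the sorted cells. Tiles that were 10 to 25 points higher in sp7+ than in sp7- cells at 0 dpa rose by 5.95 points (5.48 to 6.41 over library pairs), and tiles within 10 points of each other in the 2 populations rose by 1.63 points. The 81364 tiles of the first kind stood at 68.0% and 67.5% in whole fin at 0 dpa, between sp7- cells at 62.8% and 62.9% and sp7+ cells at 77.1% and 76.2%. They had reached 73.9% and 73.5% at 1 dpa, whereas 4 dpa libraries read 64.1% and 64.6%. Tiles that were 10 to 25 points lower in sp7+ cells rose by 1.74 points, from 57.0% to 58.7%.

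Among tiles of like starting level the rise was again larger where sp7+ cells were higher. Here it was also smaller where they were lower, which was not so over all tiles. Of the tiles at 40 to 60% in the sorted cells, those 10 to 25 points higher in sp7+ cells rose by 6.89 points, those within 10 points by 4.48 and those 10 to 25 points lower by 2.06. The ranges over library pairs, 6.49 to 7.29, 4.16 to 4.79 and 1.53 to 2.59, did not overlap. Tiles over 25 points higher rose by 6.55 points and those over 25 points lower by 2.23. Their ranges, 4.91 to 8.20 and 1.62 to 2.84, overlapped those of the 10 to 25 point classes on the same side. The share of each cell type in the whole fin libraries was not measured, and its part in these differences was not tested.

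**Figure D2:**
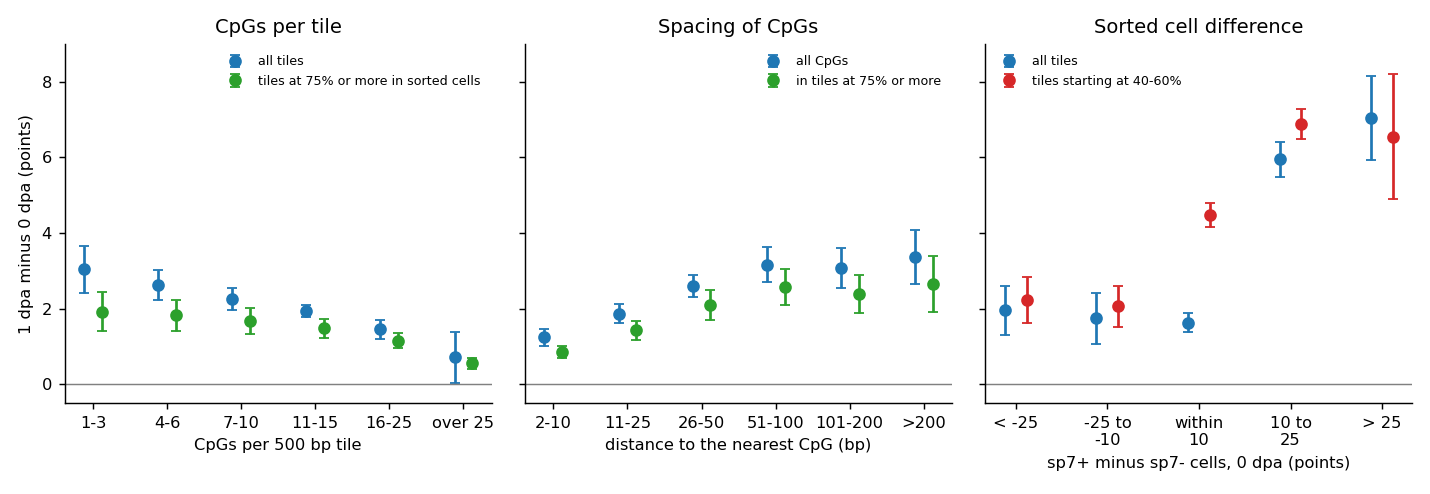
Change in level (1 dpa minus 0 dpa, points) by CpGs per tile, by distance to the nearest CpG in bp and by the difference between sp7+ and sp7- cells at 0 dpa in points. Points are group differences and bars span the lowest and highest difference between libraries. In tiles of over 25 CpGs the change was 0.71 points, and 0.56 among those at 75% or more in the sorted cells. It was 5.95 points where sp7+ cells were higher by 10 to 25 points and 7.04 where they were higher by over 25.

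Over all tiles the rise showed no gradient with the distance to unmethylated DNA up to 10000 bp. It was 1.61 points 500 bp from a tile under 5% in the sorted cells, 1.59 points at 3000 to 10000 bp and 1.95 points farther away. Among tiles that started at 20 to 60%, those 500 bp away rose by 2.08 points, those 3000 to 10000 bp away by 3.63 and those over 10000 bp away by 4.38. The library pairs ran from 1.70 to 2.46 points in the nearest class and from 4.00 to 4.77 in the farthest. Their levels at 0 dpa also differed, at 38.8% in the nearest and 48.0% in the farthest class. In tiles at 75% or more the rise was 1.19 points in the nearest class, 1.11 to 1.14 in the next ones and 1.42 in the farthest.

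All 25 chromosomes were higher at 1 dpa with no overlap between the groups. The median rise was 1.82 points, the smallest was that of chromosome 2 (77.9% and 77.8% to 79.2% and 79.3%, 1.39 points) and the largest that of chromosome 11 (78.4% and 76.7% to 79.7% and 79.7%, 2.22 points). The value of chromosome 11 rested on its 0 dpa libraries, which lay 1.75 points apart, and it was 3.10 points without 0 dpa replicate 1 and 1.34 points without 0 dpa replicate 2. Chromosome 8 moved the other way, to 1.12 and 2.19 points, and was the smallest without 0 dpa replicate 1. The median gap between replicates over chromosomes was 0.34 points at 0 dpa and 0.17 at 1 dpa. The rises forecast from each chromosome's starting levels alone spanned only 1.61 to 1.83 points.

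**Figure D3:**
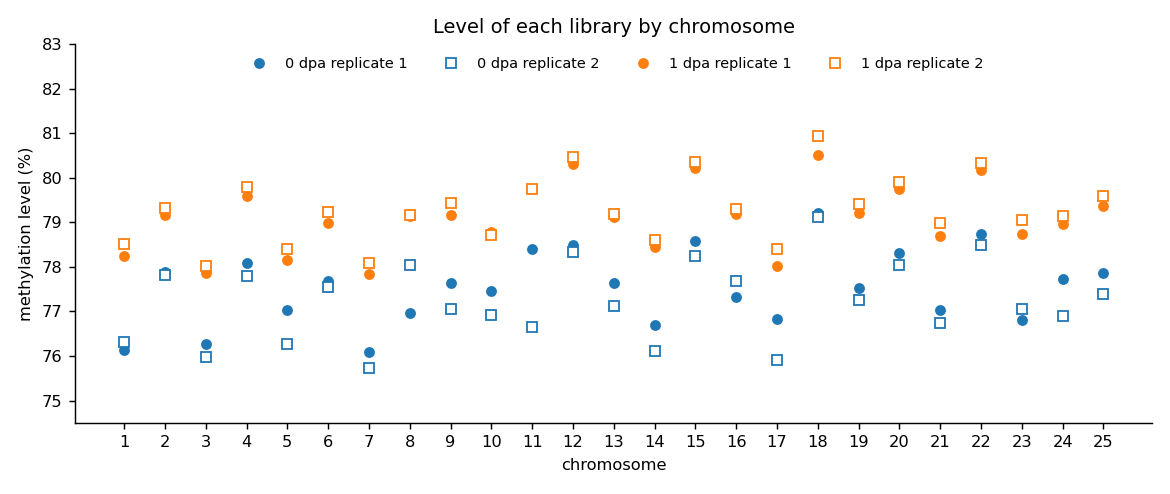
Methylation level (percent) of each of the 4 libraries on the 25 chromosomes; the axis does not start at 0. Both 1 dpa libraries lie above both 0 dpa libraries on each chromosome, and the 0 dpa replicates stand 1.75 points apart on chromosome 11.

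Chromosome ends rose slightly less than the rest. The outer 1 Mb of chromosomes rose by 1.48 points and the remainder by 1.82, with library pairs of 1.24 to 1.73 and 1.57 to 2.06 that overlap. Chromosome 4 from 20 Mb on, the repeat-rich long arm, rose by 1.64 points and the rest of that chromosome by 1.93, again with overlapping ranges.

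The rise was spread over the genome rather than held in few places. Of 1352 windows of 1 Mb, 1346 were higher at 1 dpa by group mean, 1287 (95.2%) were higher with no overlap and 0 were lower with no overlap. The 6 windows that were lower by mean differed by at most -0.37 points, and the largest rise was 4.19 points, on chromosome 19 from 36 to 37 Mb, where the 0 dpa libraries read 76.4% and 75.9% and the 1 dpa libraries 80.6% and 80.0%. The 0 dpa replicates differed by over 2 points in 80 windows, 20 of them on chromosome 11 and 17 on chromosome 8, and the 1 dpa replicates in 1. In windows of 100 kb, 75.9% were higher and 1.23% lower with no overlap. At 10 kb the shares were 48.9% and 5.09%.

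**Figure D4:**
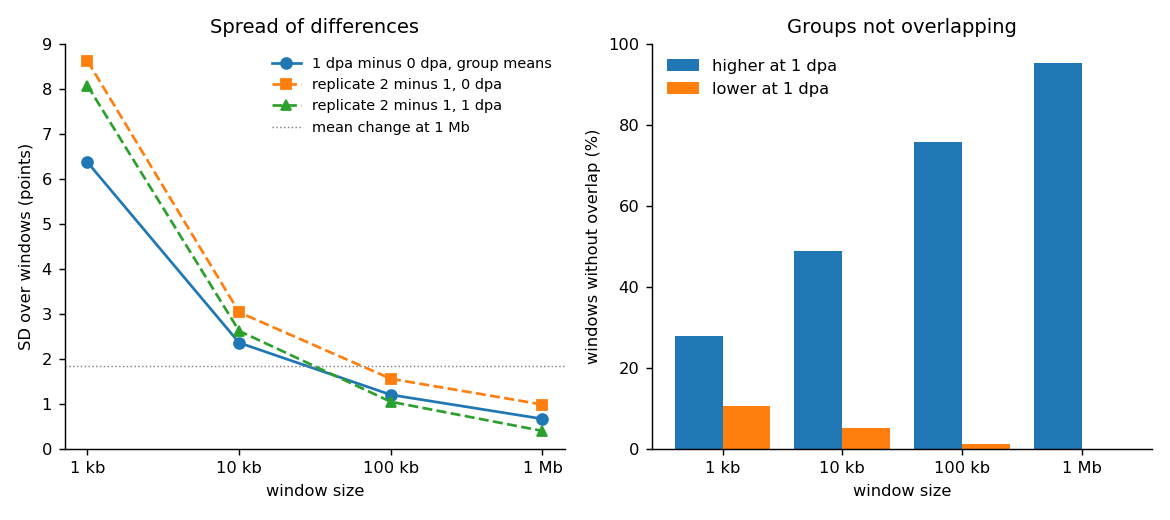
Left, SD over windows (points) of the change from 0 to 1 dpa and of the difference between replicates, by window size; right, percent of windows whose groups do not overlap, higher or lower at 1 dpa. The change is between means of 2 libraries and the replicate difference between single libraries, so the SDs are not on 1 footing. The share higher without overlap was 27.8% at 1 kb and 95.2% at 1 Mb.

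Single tiles varied widely. The median tile difference was 1.50 points, with quartiles of -1.88 and 5.75 and an SD of 7.25 points, and the difference between replicates had SDs of 9.88 points at 0 dpa and 9.31 at 1 dpa. These SDs are not on 1 footing, since the group difference averages 2 libraries on each side and the replicate difference sets single libraries against each other. By group mean, 61.6% of tiles were higher at 1 dpa and 38.1% lower.

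No single tile passed the test. A quasi-binomial model of the calls, with its dispersion moderated by limma's squeezeVar and Benjamini-Hochberg adjustment over all tiles, called 0 of 1668885 tiles higher and 0 lower (0% in each direction) at adjusted p under 0.05 and over 25 points. The smallest adjusted p was 0.777, and 105376 tiles (6.31%) had an unadjusted p under 0.05, 83773 of them higher and 21603 lower at 1 dpa. limma on arcsine square root levels also called 0 tiles, and 112695 had an unadjusted p under 0.05 by it. The count depended on the settings. With tiles of 1000 bp the model called 12, of which 7 were higher and 5 lower. When tiles with a dispersion of exactly 0 were left out of the dispersion prior, an alternative chosen after the count of 0 had been seen, the model called 409 tiles higher (0.0245%) and 82 lower (0.00491%). A count of 0 does not show that no tile changed.

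Without a test, 423569 tiles (25.4%) were higher at 1 dpa with no overlap between the groups and 188734 (11.3%) were lower. With 2 libraries against 2 and no difference between groups, a share of about 0.333 would show no overlap, split evenly between the directions. Tiles without overlap can thus include ones that did not change, in either direction. With each library's genome level subtracted the balance turned, with 286921 tiles (17.2%) higher and 343684 (20.6%) lower. The same amount was subtracted from every tile, although the rise differed with starting level. Tiles that did not change, or rose less than the genome, can therefore count as lower. Over 25 points, 10089 tiles (0.605%) rose without overlap and 2587 (0.155%) fell. The falling tiles over 25 points had a median of 6 CpGs and 20 calls per library, and the rising ones 6 CpGs and 22 calls. All tiles had a median of 9 CpGs and 55 calls. In the sorted cells, 84.0% of the falling, 89.8% of the rising and 46.6% of all tiles started between 20 and 85%. These traits were thus shared by both directions. The falling tiles over 25 points lay on all 25 chromosomes, from 54 of 48174 kept tiles on chromosome 25 to 181 of 75539 on chromosome 6.

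In the libraries that had not been used to choose them, the tiles falling and those rising by over 25 points lay at similar levels. The falling tiles had a mean level of 74.3% ± 0.97 at 0 dpa and 44.5% ± 1.20 at 1 dpa, and 59.7% ± 1.03 at 2 dpa and 59.4% ± 0.28 at 4 dpa (SD, n = 2). In sp7- and sp7+ cells of 0 dpa they lay at 62.9% ± 0.12 and 59.6% ± 0.24, below their whole fin value of the same day. The rising tiles stood at 46.1% ± 0.12 at 0 dpa and 75.9% ± 0.64 at 1 dpa, then at 63.8% ± 0.33 at 2 dpa and 59.6% ± 0.07 at 4 dpa. They lay at 60.4% ± 0.78 in sp7- and 61.1% ± 0.81 in sp7+ cells of 0 dpa, above their whole fin value of that day. Neither set stood at its 1 dpa level at 2 or 4 dpa. Since both sets were chosen for large differences between the 0 and 1 dpa libraries, less extreme levels elsewhere are built into the choice. These values therefore cannot show that a change at 1 dpa was later reversed.

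**Figure D5:**
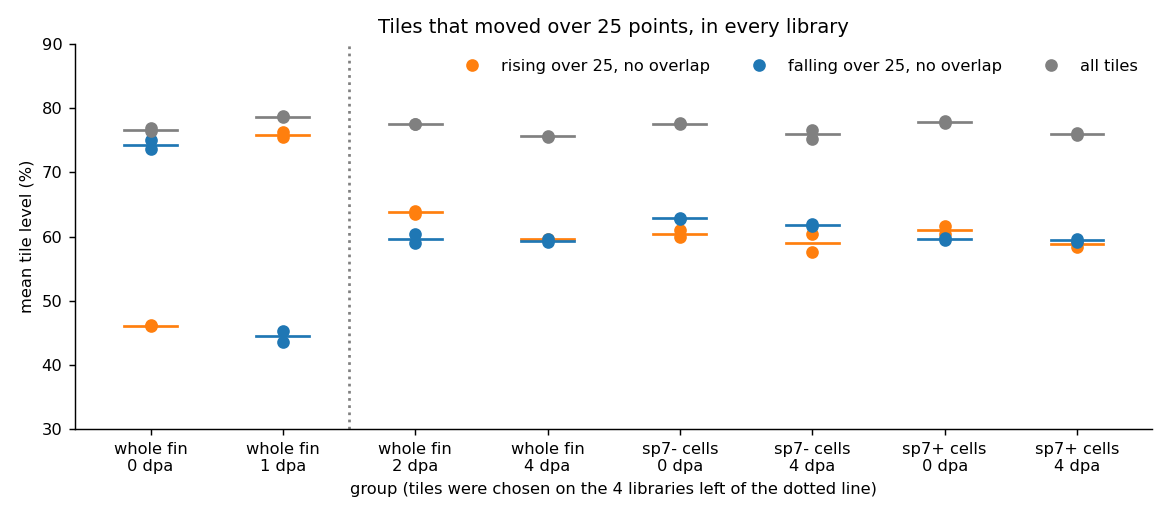
Mean tile level (percent) in each library of the tiles that rose or fell by over 25 points without overlap, and of all tiles. Dots are libraries and lines are group means. Outside the 4 libraries used for the choice, falling tiles lie between 58.9% and 63.0% and rising tiles between 57.7% and 64.0%.

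The single tiles of largest fall showed the same spread. The largest fall among tiles of 5 or more CpGs and 25 or more calls per library was on chromosome 20 from 47514000 to 47514499 (GRCz10, positions as deposited, 19 CpGs), where the 0 dpa libraries read 63.0% and 94.9%, those of 1 dpa 32.7% and 17.9% and those of 2 dpa 52.2% and 70.0%. Its 0 dpa replicates lay about as far apart as the nearer libraries of the groups. On chromosome 17 from 27790500 to 27790999 (8 CpGs) the replicates were closer, going from 82.4% and 89.3% to 43.5% and 50.0%, and the 4 dpa libraries read 74.4% and 65.1%. sp7+ cells of 0 dpa read 43.4% and 58.7% there, and sp7- cells 75.3% and 78.8%.

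The 3 other falls of this kind were on chromosomes 22, 2 and 15, where the level fell by 43.8, fell by 43.6 and fell by 39.3 points. The 1 dpa libraries read 62.3% and 22.4% on chromosome 22, 45.2% and 11.1% on chromosome 2, and 38.5% and 37.9% on chromosome 15. The largest rise was on chromosome 18 from 38515000 to 38515499 (32 CpGs), from 0% and 16.05% to 71.4% and 84.8%, and its 4 dpa libraries read 68.3% and 21.0%. On chromosome 15 from 37141000 to 37141499 (33 CpGs) the 0 dpa libraries read 29.9% and 14.0%, the 1 dpa libraries 77.9% and 77.2%, and the 4 later whole fin libraries 62.9% to 68.8%. Sorted cells of 0 dpa read 62.4%, 73.7%, 69.8% and 43.9% at that tile, above both whole fin libraries of 0 dpa.

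Falls also formed a few longer stretches. Adjoining tiles that all fell without overlap made 1799 runs of 3 or more tiles, which held 5663 of the 188734 falling tiles. Those that all rose made 14534 runs, which held 47798 of the 423569 rising tiles. Whether runs were more frequent than these tile numbers alone would give was not tested. The longest run of falls was 8 tiles on chromosome 13 from 5433500 to 5437499 (109 CpGs), where the 0 dpa libraries read 52.7% and 49.9% and those of 1 dpa 43.8% and 40.5%. It stayed low at 4 dpa (43.7% and 44.1%), and sorted cells also went from 54.7% and 56.0% to 44.7% and 44.1% (sp7-) and from 63.2% and 59.6% to 47.0% and 49.7% (sp7+) between 0 and 4 dpa. The next, 7 tiles on chromosome 2 from 24009500 to 24012999, fell from 94.2% and 95.6% to 87.4% and 89.2%, where the sorted cells of 0 dpa already read 87.8% to 89.0%. The longest run of rises, 10 tiles on chromosome 14 from 50900500 to 50905499, went from 59.7% and 61.6% to 72.8% and 71.3%.

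Regions of listed fin and bone genes showed no common direction. The regions were intervals that the study lists as gaining or losing accessibility between 0 and 4 dpa in sorted sp7+ or sp7- cells. In the part of that list at hand, 42 regions at 18 genes held 5 or more CpGs and 25 or more calls in each library. Of these, 9 were higher at 1 dpa with no overlap, 7 were lower and 26 overlapped, with a median difference of 0.57 points, beside 25.4% and 11.3% of tiles over the genome. Of 9 regions at a gene start, 7 were under 10% at 0 dpa. The start of hoxc13b, a Hox cluster gene, was lower without overlap, at 5.13% and then 3.36%, and that of fn1b, which encodes fibronectin, was higher without overlap, at 3.92% and then 7.72%. That of twist1a, a mesenchymal transcription factor, went from 0.62% to 0.91%, and that of msx1b, a homeobox gene of the blastema, from 1.40% to 1.33%, both with overlapping groups.

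Away from the starts the values moved further, in both directions. A region of sox9a, a skeletal transcription factor, went from 21.9% to 38.7% (6 CpGs, 42 to 65 calls per library). Its other regions went from 67.3% to 72.1% and from 57.9% to 55.6%, with overlapping groups. Regions of fgf20a, a ligand needed to form the blastema, went from 3.47% to 14.4%, from 10.2% to 1.79% and from 65.4% to 50.9%. These fgf20a regions held only 6 to 11 CpGs and 40 to 94 calls per library. Another region of fn1b went from 82.6% to 70.9% (14 CpGs). None of these regions was tested on its own.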

How the data were processed

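WGBS libraries were made by the authors with the TruSeq DNA Methylation Kit. The deposited values are counts of reads and of methylated reads per CpG, strands joined, not normalized. Per the study's methods and the labels, reads were trimmed (Trim Galore 0.4.1) and mapped with Bismark 0.16.1 and Bowtie2 to GRCz10 carrying variants of the strain. Whether positions count from 0 or 1 was not settled, and conversion was not measurable from CpG counts alone.

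Counts were summed in tiles of 500 bp, and tiles with 10 or more calls in each of the 4 libraries were kept. The tile test was a quasi-binomial model with Pearson dispersion moderated by limma 3.58.1 squeezeVar (R 4.3.3) with the level as covariate, floored at 1. The fit that leaves zero dispersions out of the prior was added after its first count of 0 had been seen. Both fits were tested on data simulated for the tiles of a single chromosome, with planted falls only. With an assumed extra spread between replicates, the main fit had little power there and the added fit called more unchanged tiles than its threshold allows. That spread was not estimated from these libraries, so neither outcome measures the fits of the real data. Alternatives covered weights, call minimum, tile size, coverage, starting level and each library left out. Named tiles were the largest falls and rises without overlap among tiles of 5 or more CpGs and 25 or more calls per library, named runs the longest of 3 or more tiles, and named chromosomes those of largest and smallest rise. Regions, bins and lists were chosen with earlier results of these data known. The study's list of regions that change in accessibility was held in part and used for positions only. Counting error is the only error that depth sets.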

Additional observations from a re-analysis of the deposited data

How the results depend on the processing

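Over the alternatives, 72 values stayed with the main one, 24 moved and 4 turned sign. The 4 were the end bins of the starting level: at 0 to 5% the difference of -0.04 points became 0.0769 with bins from sorted cells and 0.13 with bins from both 0 dpa libraries, and at 95 to 100% that of 0.12 became -0.0744 and -1.64. The genome's rise of 1.80 points was 2.06 with every tile of the same weight and 1.65 to 1.95 with each library left out. It was 2.03 without the 236336 tiles of excess coverage, where calls exceeded 3 times the median tile in any of the 4 libraries. Calls are summed over CpGs, so this limit falls on CpG-rich tiles, with a median of 204 calls in those of over 25 CpGs. The count of called tiles was also 0 with arcsine levels, an offset at the genome level, 20 calls per library, dispersion from 8 libraries and no tiles of excess coverage. In the quasi-binomial model the smallest adjusted p was 0.064 with dispersion from 8 libraries and 0.231 with 20 calls per library. With the offset it was 0.883, and without excess coverage 0.825. A smaller required difference could not change the count of the main fit, since its smallest adjusted p was 0.777. Fits with a library left out leave a group without replicates, so their counts are not given. Some of the 72 values thus could not move. The count was 12 (7 higher, 5 lower) with 1000 bp tiles. It was 491 (409 higher, 82 lower) with zero dispersions left out of the prior, an alternative chosen after seeing the data. The fit with dispersion from 8 libraries dropped tiles without calls in a later library. The rise at 40 to 60% was 5.94 points when both 0 dpa libraries set the bin and the difference, so that the same calls enter both. Rise at 1 to 3 CpGs minus that at over 25 was 2.33 points, 1.37 within tiles at 75% or more in sorted cells, and 1.52 (without 1 dpa replicate 1) to 3.14 (without 1 dpa replicate 2). Falling tiles without overlap numbered 116778 (10.6%) at 1000 bp, 48745 (2.92%) over 10 points and 2587 (0.155%) over 25 points. With each library's genome level subtracted, the same amount for every tile, 343684 tiles (20.6%) lay lower and 286921 (17.2%) higher without overlap. Rising tiles numbered 157847 (9.46%) over 10 points and 10089 (0.605%) over 25. Windows rising without overlap were 75.9% at 100 kb and 95.6% to 97.7% with a library left out. Leaving a library out can only keep or raise that share, since fewer libraries are compared. With the replicate number as a block 0 tiles were called, and the rise was 1.80 points, which the balanced design fixes. Deviations of same-numbered libraries correlated at -0.0038 over tiles. That correlation cannot show a shift common to all tiles, so whether same-numbered libraries were handled together was not settled. Depth limits single tiles, at a median of 51 to 61 calls.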
